A study of Arabidopsis thaliana with 2 samples.

Results

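The histone genes of the Arabidopsis thaliana root tip were compared between the library labelled atphb3 and the wild-type accession Col. A locus was taken as a histone locus when its deposited description carried a histone superfamily or histone H name, or a winged-helix name together with a histone H1 identity. The rule found 47 loci among the 22937 in the table. Of these, 43 were known genes for H1, H2A, H2B, H3 or H4. The other 4 were HON4, a linker histone-like protein that RefSeq lists under the synonym HISTONE H1, AT5G50930, the MHF1 homologue, AT5G19490, described only as a histone superfamily protein, and AT4G04408, a pseudogene with similarity to H2A. Of the 13 loci with the winged-helix name, 3 were taken as H1 (H1.1, H1.2 and HON4), and the others, among them heat shock factors and E2FC, were left out.

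The atphb3 group is labelled as a mutant of the prohibitin gene PHB3, whose protein forms ring-shaped scaffolds in mitochondria, and the labels give no allele. Both groups were root tips of primary roots. The seeds had 3 days in the cold on Murashige and Skoog medium, then a growth room held at 20 °C with days of 16 h and nights of 8 h, under what the design calls normal conditions. A further line of the protocol names shoots beside roots. Each group held 1 library of total RNA, copied with random primers, and so no spread between replicates could be set against any difference. The table assigned 7384348 reads to the library labelled atphb3 reads in atphb3 and 7451022 in Col to Col. PHB3 itself had 863 reads in the library labelled atphb3 and 915 in Col, a ratio of 0.952 (0.866 to 1.05), so its level gave no check of the label. The library labelled atphb3 is written atphb3 beside single values, and ratios are atphb3 over Col throughout, and the ranges in parentheses after them are 95% intervals (Clopper-Pearson) for counting error alone; they set one library against the other and say nothing of the spread within a genotype. In tissue samples such as these, fewer cells of a type and less RNA per cell cannot be told apart.

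Histones package DNA into nucleosomes, each built from pairs of H2A, H2B, H3 and H4, with the linker histone H1 bound where DNA enters and leaves. Canonical H2A, H2B, H4 and the H3.1 form of H3 are made mainly in S phase, when the replicated DNA needs new nucleosomes, and H3.1 is laid down by the chromatin assembly factor CAF-1. H3.3 is made and exchanged throughout the cell cycle and marks transcribed genes, while H2A.Z, H2A.W and H2A.X are variants of gene starts, of heterochromatin and of DNA damage signalling. Some plant S phase histone genes carry the octamer CGCGGATC in their promoters, a classical element of cell cycle-dependent histone transcription.

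Stretches of 250 bases upstream of 6 histone genes are shown because they belong to the H3.1 genes with the octamer, to the measured H4 gene with the highest ratio, and to the 2 measured histone genes that differed most between the libraries. Each reads 5′ to 3′ on the strand of its gene and ends at the base before the gene start of the RefSeq annotation (build TAIR10.1). Capitals mark the octamer CGCGGATC and a second string, CCGTTGAT or CCGTCGAT, each in either orientation. In HTR1 and HTR9 the octamer begins 126 and 120 bases before the start and the second string 96 and 90 bases before it, and in AT5G59690 the octamer begins at 71 bases and the second string at 52 and 36. HTR2 holds the octamer at 2 places, 90 and 19 bases before the start, and not the second string, and the windows of HTB3 and H1.3 hold neither. The other windows with the octamer are not shown. Of their genes, HTR5, H1.1 and HTA10 had log2 ratios of -0.83, -0.38 and -0.05, and HTA6 and HTA13 had 0.64 and 0.67. AT1G07660 was not measured. In HTR2, AT5G59690, HTB3 and H1.3 the annotated start lies further upstream of the deposited transcript than in HTR1 and HTR9. The bases between those starts were not searched, and the distances are not on a common scale. The window of HTR1 lies at chr5:26120582-26120831 (minus strand), that of HTR2 at chr1:2972335-2972584 (minus strand), that of HTR9 at chr5:3270958-3271207 (minus strand) and that of the H4 gene AT5G59690 at chr5:24051224-24051473 (plus strand). That of HTB3 lies at chr2:12326558-12326807 and that of H1.3 at chr2:7845673-7845922, both on the plus strand.
HTR1: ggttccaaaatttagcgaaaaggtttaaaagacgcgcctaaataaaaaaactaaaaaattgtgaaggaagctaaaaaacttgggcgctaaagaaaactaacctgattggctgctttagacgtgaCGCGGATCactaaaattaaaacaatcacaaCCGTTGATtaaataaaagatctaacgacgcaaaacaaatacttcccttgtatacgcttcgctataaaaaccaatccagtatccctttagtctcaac
HTR2: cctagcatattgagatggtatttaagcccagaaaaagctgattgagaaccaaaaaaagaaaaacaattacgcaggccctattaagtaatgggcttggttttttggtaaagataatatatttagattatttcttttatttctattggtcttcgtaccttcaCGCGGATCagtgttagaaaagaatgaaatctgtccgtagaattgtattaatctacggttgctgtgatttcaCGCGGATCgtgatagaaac
HTR9: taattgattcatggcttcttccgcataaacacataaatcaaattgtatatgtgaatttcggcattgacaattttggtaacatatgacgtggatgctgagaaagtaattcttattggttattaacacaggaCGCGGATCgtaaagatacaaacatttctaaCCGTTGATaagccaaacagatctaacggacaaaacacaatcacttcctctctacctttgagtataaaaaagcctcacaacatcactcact
AT5G59690: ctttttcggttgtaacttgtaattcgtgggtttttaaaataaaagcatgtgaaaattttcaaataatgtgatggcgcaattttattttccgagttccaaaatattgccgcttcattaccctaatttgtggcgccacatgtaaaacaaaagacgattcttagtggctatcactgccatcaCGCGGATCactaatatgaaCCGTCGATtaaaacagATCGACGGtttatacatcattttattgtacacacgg
HTB3: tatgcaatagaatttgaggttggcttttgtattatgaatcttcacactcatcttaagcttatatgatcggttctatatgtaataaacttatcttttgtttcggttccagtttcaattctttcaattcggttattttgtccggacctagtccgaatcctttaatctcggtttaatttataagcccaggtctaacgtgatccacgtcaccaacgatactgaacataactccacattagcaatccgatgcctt
H1.3: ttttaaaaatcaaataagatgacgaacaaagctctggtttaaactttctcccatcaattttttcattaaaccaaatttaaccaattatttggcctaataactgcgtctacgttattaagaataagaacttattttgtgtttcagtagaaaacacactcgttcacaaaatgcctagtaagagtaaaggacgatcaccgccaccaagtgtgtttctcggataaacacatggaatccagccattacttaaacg

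The octamer was found, on either strand, in the upstream window of 10 of 46 histone loci (the pseudogene was not searched), or 21.7%, and in 37 of 27443 windows over all protein-coding genes, or 0.135%. Its holders were 3 of 5 H3.1 genes (HTR1, HTR2 and HTR9), 2 of 4 replicative H2A genes (HTA10 and HTA13), 2 of 8 H4 genes (AT5G59690 and AT1G07660), the H2A.W gene HTA6, the linker histone gene H1.1 and the H3.3 gene HTR5. None of the 9 H2B windows held it. The second string was chosen after the windows had been viewed. One or other form of it was found in 16 of 46 histone windows, or 34.8%, against 1.08% of all windows. Both the octamer and the second string stood in 8 windows of all protein-coding genes, and those 8 were histone windows. TTTCCCGC, a form of the site of E2F factors, which switch on S phase genes, was in no histone window and in 0.619% of all windows. The other form searched, TTTGGCGC, was in 2, both of H4 genes, or 4.35%, against 0.361%. These 2 windows, of AT3G45930 and AT3G46320, are nearly the same sequence, so they are not separate occurrences. Both are also counted among the holders of the second string. The G-box CACGTG was in 3 windows, or 6.52%, against 6.49%, and the abscisic acid element ACGTGTC was in 3, all of H2B genes, against 3.68% of all windows. Neither of these was found in the windows of HTB3 and H1.3. All motifs were searched on both strands as exact strings, and no further form of the E2F site was searched.

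Histone mRNA as a whole was close between the libraries, and a few genes within the families stood far apart. Reads of all 47 loci together came to 20638 in the library labelled atphb3 and 22333 in Col, or 2795 CPM in atphb3 and 2997 CPM in Col (reads scaled to the library total). A locus is called measured here if one of the libraries, or both, gave it 50 reads or more, and 33 of the 47 were. In the library labelled atphb3, 0 of these 33 were higher by 2-fold or more, against 9.74% of all measured loci. The 33 leave out HTA3, a known H2A.X gene outside the rule, whose ratio was 3.01 (2.60 to 3.50). Those lower by 2-fold or more were 2 of 33, the linker histone gene H1.3 and the H2B gene HTB3, against 10.1% of all measured loci. In either direction that is 6.06% of the histone loci, against 19.8% of all, and the other 31 lay within 2-fold. At a limit of 1.5-fold, the 6 histone loci that were higher (18.2%, against 22.0% of all measured loci) were HTA6, HTA11, HTA13, HTR2, HTR9 and HTR13. The 4 that were lower (12.1%, against 18.3%) were H1.3, HTB3, HTR5 and HON4, which makes 30.3% in either direction, against 40.3%. These counts are nested, and their differences from the shares over all loci were not tested. The median log2 ratio of the measured histone loci was 0.06, with a range of -4.68 to 0.85, beside 0.08 over all 12931 measured loci. Under TMM scaling, which uses the bulk of the genes in place of the library total, the histone median was -0.0072 and that of all measured loci 0.01.

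**Figure D1:**
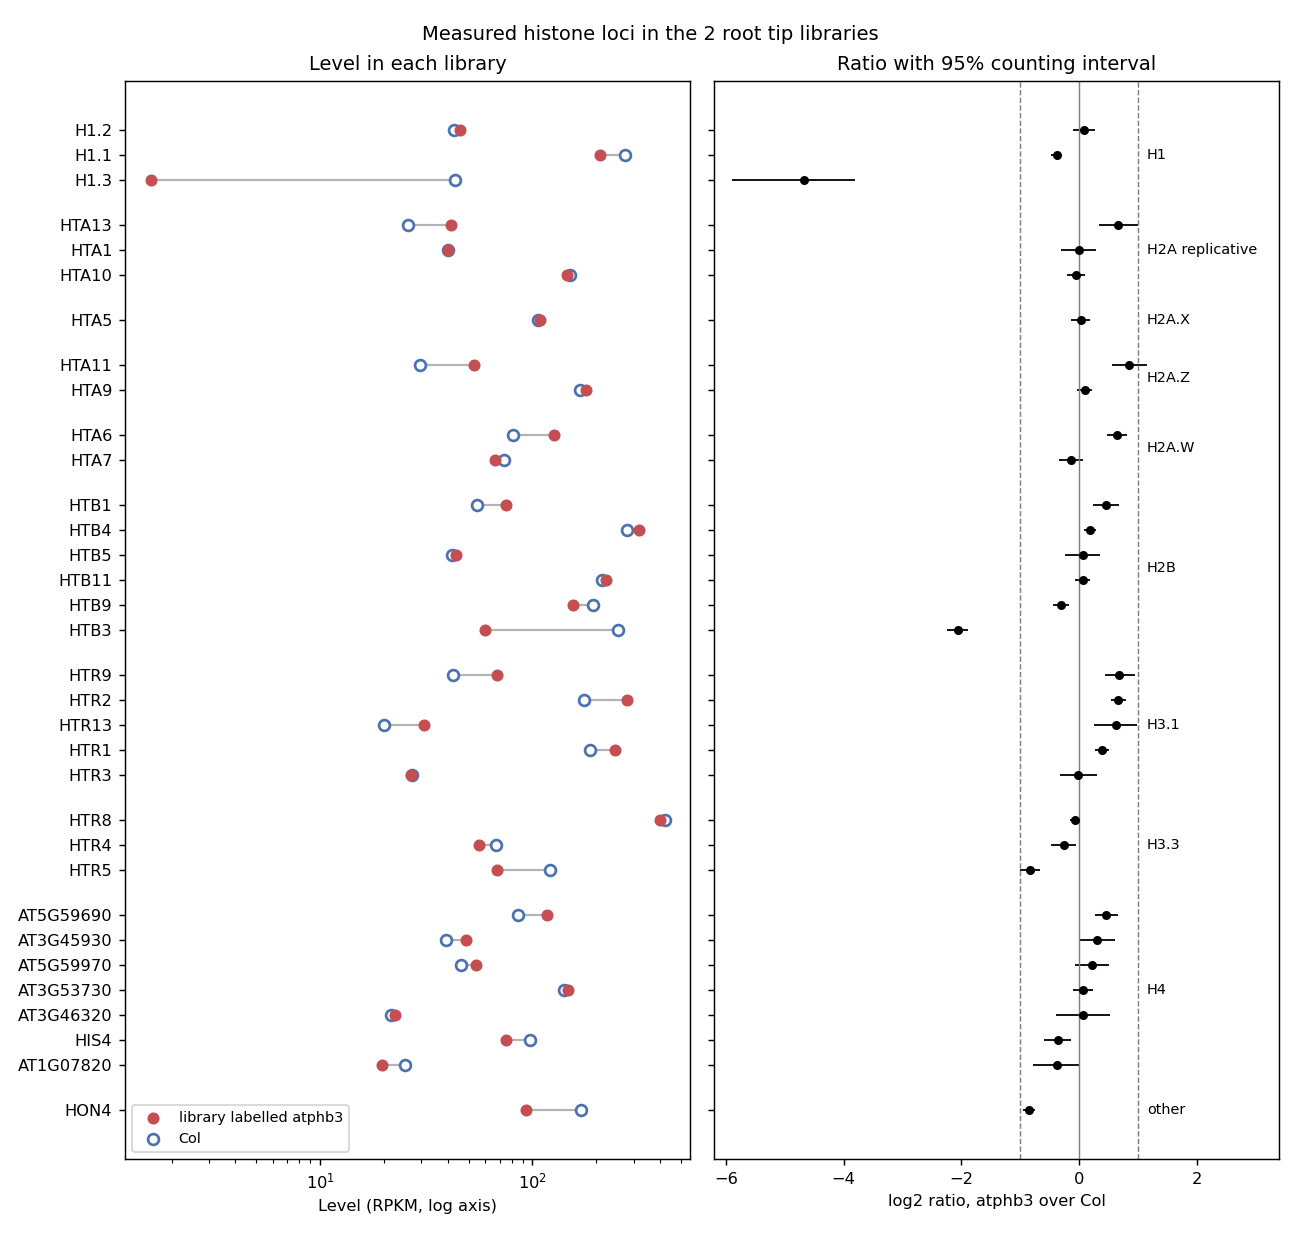
Left, the level of each measured histone locus found by the rule, in RPKM (reads scaled to transcript length and library total, log axis). Filled points are the library labelled atphb3 and open points are Col. Right, the log2 ratio of atphb3 over Col with its 95% counting interval, dashed lines marking 2-fold. H1.3 and HTB3 lie below the lower dashed line, and the H3.1 genes other than HTR3 lie above 0.

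Tissue markers differed between the libraries as well. Summed over the listed genes, meristem markers (PLT1 and PLT2) had 45.6 CPM in the library labelled atphb3 and 19.5 CPM in Col. The quiescent centre marker WOX5 had 11.1 CPM in atphb3 and 3.22 CPM in Col, and root hair markers had 126 CPM in atphb3 and 63.2 CPM in Col. Lower in the library labelled atphb3 were phloem markers, at 51.2 CPM in atphb3 and 260 CPM in Col, xylem markers, at 205 CPM in atphb3 and 367 CPM in Col, and green tissue markers, at 2.84 CPM in atphb3 and 85.1 CPM in Col. CASP1 of the endodermis had 144 CPM in atphb3 and 148 CPM in Col, and SMB of the root cap had 1 read in atphb3 and 2 in Col. Of the 13 markers with a value none was at 0. Their part in the differences of H3.1, H3.3, H1.3, HTB3 and the other histone genes given here was not tested.

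Per length, HTR8, an H3.3 gene, was the histone gene with the highest level in both libraries, at 399 RPKM in the library labelled atphb3 and 418 RPKM in Col. HTB4, an H2B gene, came next at 316 RPKM in atphb3 and 278 RPKM in Col. After these the order differed. In the library labelled atphb3 the H3.1 genes HTR2 and HTR1 followed, at 278 and 244 RPKM, whereas in Col the linker histone gene H1.1 and HTB3 followed, at 271 and 252 RPKM. HTB3 stood at 60.1 RPKM in the library labelled atphb3.

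Linker histone mRNA was lower in the library labelled atphb3, most of all in H1.3, whereas H1.2 was not. The 3 H1 genes summed to 297 CPM there and to 393 CPM in Col, a ratio of 0.756 (0.715 to 0.799). H1.3 (AT2G18050, chromosome 2, 7846050 to 7846884, plus strand) encodes a divergent linker histone induced by dehydration and abscisic acid, per the RefSeq annotation. It had 9 reads in the library labelled atphb3 and 245 in Col, or 1.22 CPM in atphb3 and 32.9 CPM in Col, and was thus 27.0-fold lower (14.0 to 59.7). H1.3 was measured through Col alone. Its share of all H1 reads was 0.411% (0.188 to 0.778) in the library labelled atphb3 and 8.37% (7.39 to 9.44) in Col. H1.1, the linker histone gene with the most reads, had 1682 reads in the library labelled atphb3 and 2205 in Col, a ratio of 0.770 (0.722 to 0.820). Its interval lay below 1, whereas that of H1.2, with 501 reads in atphb3 and 476 in Col and a ratio of 1.06 (0.935 to 1.21), held 1. H1.1 overlaps AT1G06750 on the other strand, which had 1 read in the library labelled atphb3 and 0 in Col. HON4, the linker histone-like gene outside the H1 class, had 1314 reads in the library labelled atphb3 and 2388 in Col, 1.80-fold lower (1.68 to 1.93).

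Most of the difference in H2B mRNA, the partner of H2A in the nucleosome, lay in 1 gene. HTB3 (AT2G28720, chromosome 2, 12326978 to 12327678, plus strand) had 311 reads in the library labelled atphb3 and 1315 in Col, or 42.1 CPM in atphb3 and 176 CPM in Col, and was 4.19-fold lower (3.70 to 4.76). It supplied 6.46% of the H2B reads of the library labelled atphb3 (5.78 to 7.19) and 23.2% of those of Col (22.1 to 24.3). The summed H2B ratio over 9 loci was 0.856 (0.824 to 0.890), and without HTB3, a split made after seeing its value, it was 1.04 (0.9996 to 1.09). Of the 5 other measured H2B genes, HTB1, with 405 reads in atphb3 and 299 in Col, had the highest ratio, at 1.37 (1.17 to 1.59). HTB9, with 837 reads in the library labelled atphb3 and 1042 in Col, had the lowest, at 0.811 (0.739 to 0.889). HTB9 overlaps AT3G45970, with 171 reads in atphb3 and 335 in Col, on the other strand, and without a stated strand-marking step the reads of the pair cannot be told apart. HTB4, the most read H2B gene, had 1885 reads in the library labelled atphb3 and 1675 in Col, a ratio of 1.14 (1.06 to 1.21). HTB11 and HTB5 had ratios of 1.04 (0.956 to 1.13) and 1.04 (0.848 to 1.28). HTB3 lies 1810 bases from the H4 gene HIS4, and this neighbour had 282 reads in atphb3 and 367 in Col, a log2 ratio of -0.37 where HTB3 had -2.07.

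The sum of the H3.1 genes was higher and that of the H3.3 genes lower in the library labelled atphb3, with HTR3 of the H3.1 genes and HTR8 of the H3.3 genes close to equal. The 5 H3.1 genes summed to 3205 reads in the library labelled atphb3 and 2278 in Col, or 434 CPM in atphb3 and 306 CPM in Col, a ratio of 1.42 (1.34 to 1.499). The 3 H3.3 genes summed to 2853 reads in atphb3 and 3388 in Col, or 386 CPM in atphb3 and 455 CPM in Col, a ratio of 0.850 (0.808 to 0.893). H3.1 made up 52.8% of all H3 reads in the library labelled atphb3 (51.5 to 54.0) and 40.2% in Col (38.9 to 41.5). On the RPKM scale, which allows for transcript length, the shares were 55.2% in atphb3 and 42.6% in Col. The total over all H3 genes differed less, with a ratio of 1.08 (1.04 to 1.12).

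Each H3.1 gene but HTR3 was higher in the library labelled atphb3 beyond its counting interval. HTR2 (AT1G09200, chromosome 1, 2971593 to 2972199, minus strand) had 1246 reads in the library labelled atphb3 and 792 in Col, a ratio of 1.59 (1.45 to 1.74). HTR1 (AT5G65360, chromosome 5, 26119859 to 26120581, minus strand), the most read H3.1 gene of both libraries, had 1301 reads in atphb3 and 1004 in Col, a ratio of 1.31 (1.203 to 1.42). HTR9 and HTR13 lie 739 bases apart on chromosome 5 and had nearly the same ratio. HTR9 had 333 reads in atphb3 and 209 in Col, a ratio of 1.61 (1.35 to 1.92), and HTR13 had 160 reads in atphb3 and 105 in Col, a ratio of 1.54 (1.19 to 1.99). HTR3, with 165 reads in atphb3 and 168 in Col, stood apart at 0.991 (0.795 to 1.24), an interval that overlaps those of HTR13 and HTR1. In HTR3, 35.6% of the 50-base stretches of its annotated transcript also occur in transcripts of another gene, AT3G27380, so its count is uncertain.

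The 3 H3.3 genes encode the replacement histone that is laid down outside replication. HTR5 (AT4G40040) was the H3.3 gene with the lowest ratio, with 432 reads in the library labelled atphb3 and 777 in Col, a ratio of 0.561 (0.498 to 0.632). HTR4, which lies 215 bases from HTR5 on chromosome 4, had 318 reads in atphb3 and 385 in Col, a ratio of 0.833 (0.716 to 0.969). HTR8, the most read H3 gene, had 2103 reads in atphb3 and 2226 in Col, a ratio of 0.953 (0.898 to 1.01). HTR5 and HTR4 are listed with several transcripts, and no source used here says how the authors divided reads among transcripts; HTR8 is listed with 1. Over loci with 1 listed transcript, the H3.3 ratio was 0.953, and H3.1 made up 60.3% of H3 reads in the library labelled atphb3 and 50.5% in Col.

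**Figure D2:**
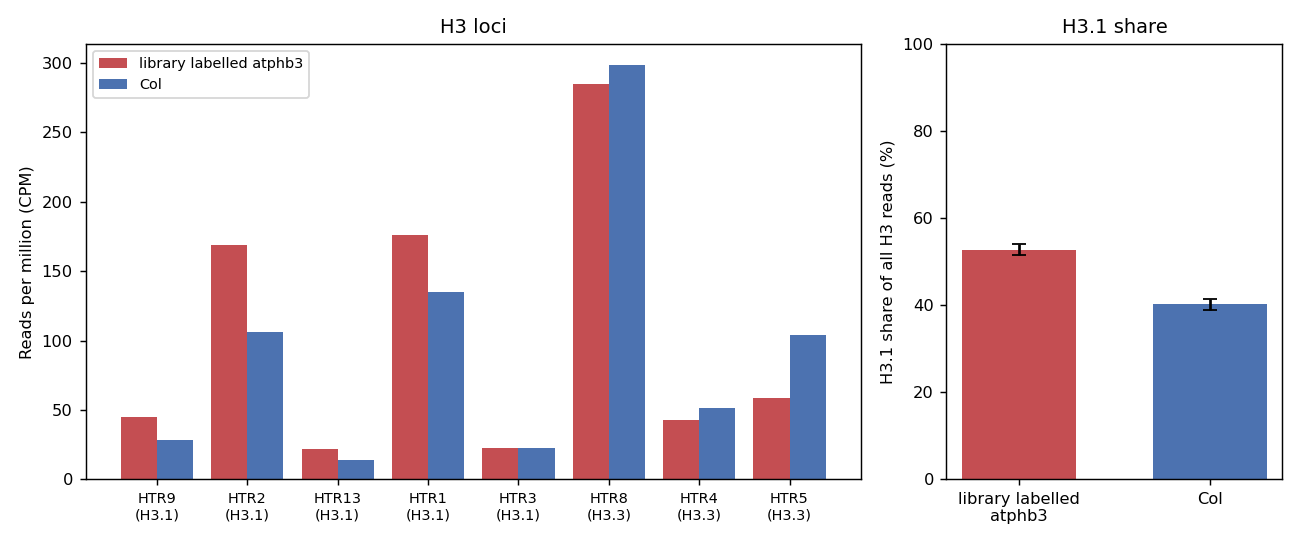
Left, CPM of the 8 measured H3 genes, with the library labelled atphb3 left of Col in each pair; H3.1 genes come before H3.3 genes. Right, the H3.1 share of all H3 reads in percent with its 95% exact binomial interval, 52.8% in the library labelled atphb3 and 40.2% in Col.

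Other forms of H3 were too shallow to compare. CENH3 (HTR12), which builds the nucleosomes of centromeres, had 5 reads in the library labelled atphb3 and 0 in Col, and 0 reads allow a level of up to 0.403 CPM. HTR6 likewise had 5 reads in atphb3 and 0 in Col, and HTR14 had 4 in atphb3 and 3 in Col. HTR11, a known H3 gene whose description the rule does not match, had 15 reads in atphb3 and 7 in Col.

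Among the measured H2A genes that the rule found, HTA11, HTA6 and HTA13 were higher in the library labelled atphb3. The measured class mates of each were closer to equal. HTA3, an H2A.X gene outside the rule, had a higher ratio than these, 3.01 (2.60 to 3.50), and is left out of the sum that follows. The 12 H2A genes summed to 568 CPM in the library labelled atphb3 and 504 CPM in Col, a ratio of 1.13 (1.08 to 1.18). Of the H2A.Z genes, HTA11 (AT3G54560) had 271 reads in atphb3 and 151 in Col, a ratio of 1.81 (1.48 to 2.22), the highest of the 33 measured histone loci. H2A.Z sits at the first nucleosomes of genes, and its more read gene, HTA9, had 1066 reads in atphb3 and 1006 in Col, a ratio of 1.07 (0.980 to 1.17), and overlaps AT1G52750, which had 243 reads in atphb3 and 428 in Col. Of the H2A.W genes, which encode the variant of silent heterochromatin, HTA6 (AT5G59870) had 702 reads in atphb3 and 455 in Col, a ratio of 1.56 (1.38 to 1.76). HTA7 had 390 reads in atphb3 and 434 in Col, a ratio of 0.907 (0.789 to 1.04). The replicative H2A genes supply the canonical form that S phase chromatin uses. Of these, HTA13 had 197 reads in atphb3 and 125 in Col, a ratio of 1.59 (1.26 to 2.01), and it overlaps AT3G20680, which had 25 reads in atphb3 and 121 in Col. HTA10, with 720 reads in atphb3 and 753 in Col, and HTA1, with 197 in atphb3 and 200 in Col, had ratios of 0.965 (0.870 to 1.07) and 0.994 (0.812 to 1.22). The ratios of HTA11, HTA6 and HTA13 had intervals that did not meet those of their measured class mates. HTA13 shares 11.1% of its 50-base stretches with HTA10, so its count is uncertain, and without it the replicative H2A ratio was 0.991.

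Both H2A.X genes encode the form that is phosphorylated at DNA breaks, and they differed from each other. HTA5 had 598 reads in the library labelled atphb3 and 593 in Col, a ratio of 1.02 (0.907 to 1.14). HTA3 (AT1G54690, chromosome 1, 20414316 to 20415287, minus strand) is described as a gamma histone variant and so lies outside the rule. It had 710 reads in the library labelled atphb3 and 238 in Col, a ratio of 3.01 (2.60 to 3.50). With HTA3 the H2A.X genes summed to 1308 reads in atphb3 and 831 in Col, a ratio of 1.59 (1.45 to 1.73). HTA3 overlaps AT1G54680 on the other strand, which had 2 reads in the library labelled atphb3 and 4 in Col. Of the 50-base stretches of the HTA3 transcript, 27.9% also occur in transcripts of another gene, mostly AT1G54680, so the count of HTA3 is uncertain. HTB2, an H2B gene that the rule also passes over, had 749 reads in atphb3 and 685 in Col, a ratio of 1.103 (0.993 to 1.23). HTA3 is described here with its value known. It and HTB2 belong to the list of known histone genes. So do HTB8, HTR10 and HTR15, which had no entry among the deposited transcripts.

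H4 genes lay close to equality, some above and some below it. The 8 genes, which encode the same kind of core subunit, summed to 2006 reads in the library labelled atphb3 and 1884 in Col, or 272 CPM in atphb3 and 253 CPM in Col, a ratio of 1.07 (1.01 to 1.14). Of the 7 measured, AT5G59690 had the highest ratio, with 513 reads in atphb3 and 376 in Col and a ratio of 1.38 (1.203 to 1.58). It is one of the H4 genes with the octamer. AT3G45930 had 201 reads in atphb3 and 164 in Col, a ratio of 1.24 (1.001 to 1.53), and AT5G59970 had 220 in atphb3 and 190 in Col, a ratio of 1.17 (0.958 to 1.43). AT3G53730, the H4 gene with the most reads, had 586 in atphb3 and 565 in Col, a ratio of 1.05 (0.931 to 1.18), and AT3G46320 had 86 in atphb3 and 83 in Col. HIS4 and AT1G07820 lay on the other side of 1. HIS4 had 282 reads in atphb3 and 367 in Col, a ratio of 0.775 (0.661 to 0.908), and AT1G07820 had 95 in atphb3 and 125 in Col, a ratio of 0.767 (0.581 to 1.01). Of the measured H4 genes, 5 of 7 had a log2 ratio above 0, beside 7065 of all 12931 measured loci. Of the 5 H4 genes, AT3G46320 lay below 0 under TMM scaling, at -0.0012. AT3G53730 did so in totals that leave out the 10 most abundant loci, at -0.0053. For AT3G45930 and AT3G46320, 25.7% and 27.9% of the 50-base stretches of the transcripts occur in both genes, so the split of reads between them is uncertain, and AT1G07820 shares 18.4% of its own with AT1G07660.

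**Figure D3:**
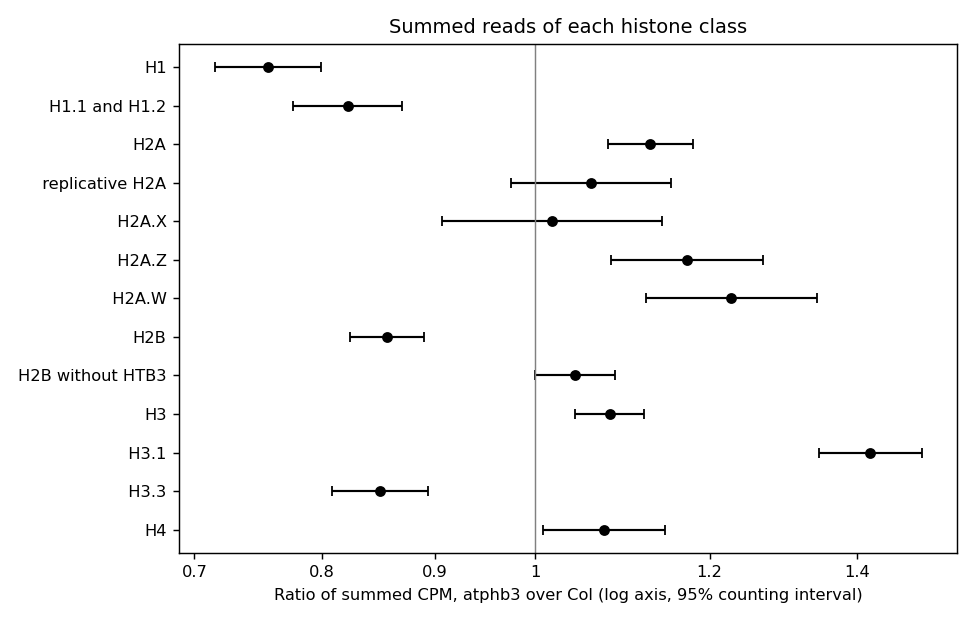
Ratio of summed CPM of each histone class, atphb3 over Col, over the loci found by the rule, on a log axis with 95% counting intervals. The vertical line marks equal sums. H3.1 lies at 1.42, H3.3 at 0.850 and H1 at 0.756, and H2B moves to 1.04 when HTB3 is left out.

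The 14 histone loci that were not measured had at most 40 reads in either library. They include the H2A genes HTA2 (38 reads in atphb3 and 19 in Col), HTA12 (4 in atphb3 and 12 in Col), HTA8 (10 in atphb3 and 4 in Col) and HTA4 (1 in atphb3 and 0 in Col). They also include the H2B genes HTB6 (36 in atphb3 and 40 in Col), HTB7 (24 in atphb3 and 25 in Col) and HTB10 (2 in atphb3 and 4 in Col), and the H4 gene AT1G07660 (23 in atphb3 and 14 in Col). AT5G50930 had 25 reads in atphb3 and 23 in Col, AT5G19490 had 21 in atphb3 and 15 in Col, and the pseudogene AT4G04408 had 0 in atphb3 and 2 in Col. Apart from that of HTA2, whose ratio was 2.02 (1.13 to 3.71), each interval of these ratios held 1. For those no difference was detectable at these read counts. Some of the loci have more than 1 annotated transcript, among them HTR12, HTA8, HTA2 and AT1G07660, whereas HTB6, HTB7 and HTB10 have 1. Whether reads shared between transcripts were lost was not tested.

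Measured histone genes with the octamer in their upstream window had a median log2 ratio of 0.46, and those without it had one of 0.04. Of the 9 with the octamer, 6 had a log2 ratio above 0, namely HTR1, HTR2, HTR9, HTA6, HTA13 and AT5G59690. The other 3 were HTA10 at -0.05, H1.1 at -0.38 and the H3.3 gene HTR5 at -0.83. Of the 24 without it, 13 had a log2 ratio above 0, and their range of -4.68 to 0.85 spans that of the first set. Over all 12931 measured loci, 7065 had a log2 ratio above 0. HTR3 and HTR13, the H3.1 genes without the octamer in the window, had log2 ratios of -0.01 and 0.62. HTR13 held the second string, 93 bases before its start, and HTR3 held neither. The window starts from the outermost annotated gene start, which can lie upstream of the start used in the root tip. The annotated gene of H1.3 begins upstream of the deposited transcript, which begins at 7846050. The same holds for other loci, among them HTA5, HTB3, HTB4, HTR2, HTR5, AT5G59690 and AT3G53730. For AT3G53730, on the minus strand, the deposited transcript begins at 19913033 and the window lies from 19913516 upward. Bases between the 2 starts were not searched, so absence of the octamer is limited to the window. These motifs and the split by them were chosen with the values known and are given as a description.

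**Figure D4:**
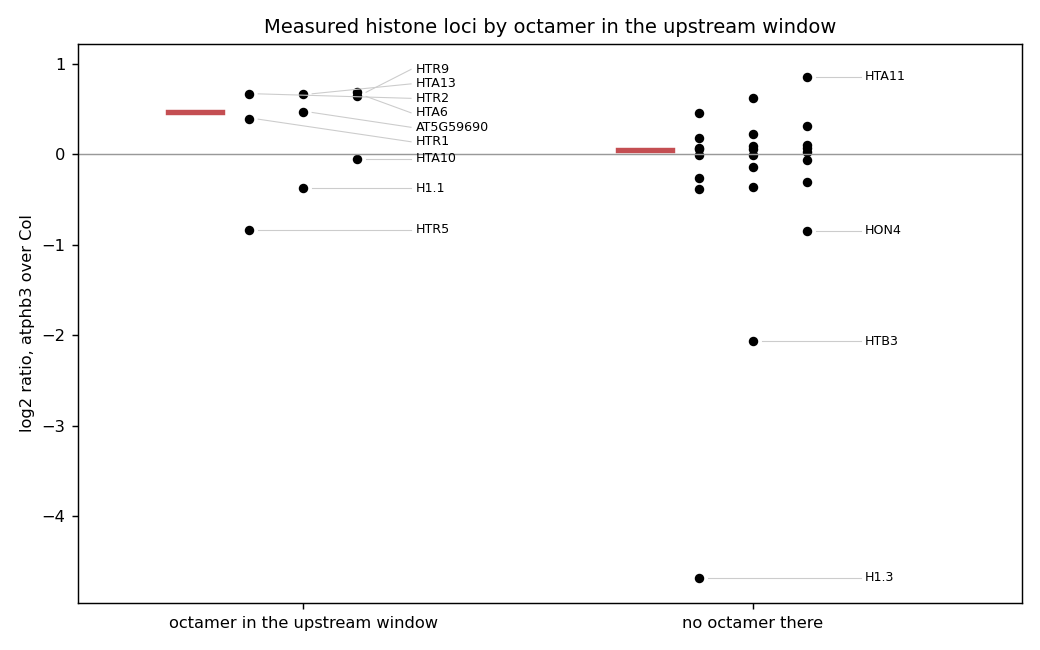
log2 ratio, atphb3 over Col, of the 33 measured histone loci, those with the octamer in the 250 bases upstream on the left and those without it on the right; short bars mark the medians, 0.46 and 0.04. The points with the octamer lie between -0.83 and 0.68, within the range of the points without it.

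The H2B, H3.1 and H4 genes here mostly lack coding introns, whereas the replicative H2A genes carry them. A split by coding intron thus follows the histone family and not the replicative class. The 18 measured histone genes without an intron in the annotated coding sequence, all of them H2B, H3.1 or H4 genes, had a median log2 ratio of 0.12, and 13 of them were above 0. The 15 with a coding intron, which include H1, H2A, H3.3 and HON4, had a median of -0.05, and 6 were above 0. Over all 12931 measured loci the median was 0.08, and 7065 were above 0. Under TMM scaling HTB5, HTB11 and AT3G46320 of the first set and HTA5 of the second lay below 0. Of the 33 measured loci, 22 shared no 50-base stretch of transcript with another gene, and the 28 that shared under 10% had a median of 0.06.

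Genes that act with histones in replication were set beside them. Of 16 S phase genes listed, 11 were measured. All 11 had a log2 ratio above 0, beside 7065 of all 12931 measured loci. The median of the 11 was 0.70, with a range of 0.08 to 1.94, beside 0.62 for the 5 H3.1 genes. TSO2, a subunit of the enzyme that makes deoxynucleotides, was the 1 of 11 higher by 2-fold or more (9.09%, against 9.74% of all measured loci), with 1828 reads in the library labelled atphb3 and 481 in Col, a ratio of 3.83 (3.47 to 4.25). The 3 measured replicative H2A genes, the 6 H2B genes and the 7 H4 genes had medians of -0.01, 0.06 and 0.07. Those lie near the 0.08 of all measured loci. Of 9 measured G2 and M phase genes, 1 was higher by 2-fold or more (11.1%, against the same 9.74%), the mitotic cyclin gene CYCB1;1 with 192 reads in atphb3 and 70 in Col, and the median was 0.31. The median over the 4 of these with at least 200 reads was 0.11.

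Histone chaperones, the proteins that carry histones to DNA, showed no common direction. Of the 14 listed, 9 were measured. Of these, 4 had a log2 ratio above 0, beside 7065 of all 12931 measured loci, and the median was -0.13. ASF1B, one of a pair of chaperones that hand H3 and H4 to assembly factors, was the 1 of 9 higher by 2-fold or more (11.1%, against 9.74% of all measured loci), with 109 reads in the library labelled atphb3 and 51 in Col, a ratio of 2.16 (1.53 to 3.07). Its paralogue ASF1A had 166 reads in atphb3 and 208 in Col, a ratio of 0.805 (0.653 to 0.992). MSI1, the third subunit of CAF-1, had 608 reads in atphb3 and 424 in Col, a ratio of 1.45 (1.28 to 1.64). FAS1 and FAS2, the other subunits, were shallow: FAS1 had 5 reads in atphb3 and 5 in Col, and FAS2 had 4 in atphb3 and 1 in Col. SPT16 and SSRP1, which form the FACT complex that moves H2A and H2B during transcription, had ratios of 0.915 (0.847 to 0.988) and 0.894 (0.815 to 0.981). The 4 listed genes for the deposition of H2A.Z had a median of 0.04. Of them ARP6, with 303 reads in atphb3 and 221 in Col, had the highest ratio, at 1.38 (1.16 to 1.65), and PIE1, the catalytic subunit and the most read of them, had 758 reads in atphb3 and 741 in Col, a ratio of 1.03 (0.932 to 1.14). SWC4, a subunit of the same complex, had 484 reads in atphb3 and 477 in Col, a ratio of 1.02 (0.900 to 1.16). MSI1, SSRP1 and ARP6 overlap another listed locus. Of the 5 listed regulators of S phase genes 0 were measured, and E2FA had no entry among the deposited transcripts. RBR1, the retinoblastoma homologue, had 23 reads in atphb3 and 10 in Col.

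**Figure D5:**
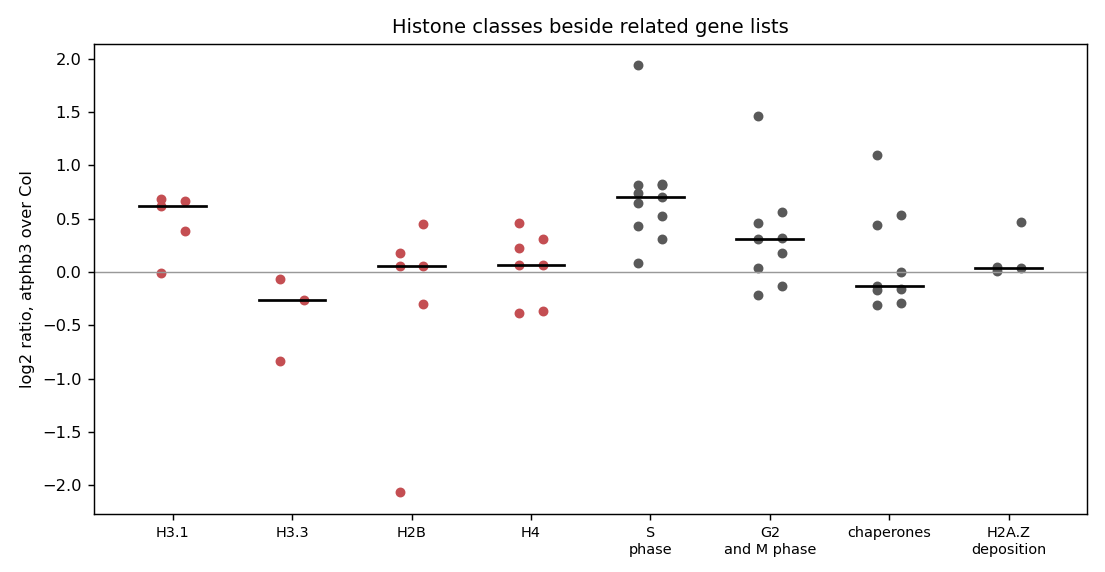
log2 ratio, atphb3 over Col, of each measured gene of 4 histone classes and of 4 related gene lists, with horizontal bars for the medians. The H3.1 median of 0.62 lies near the S phase median of 0.70, and those of H2B and H4 lie near 0.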

How the data were processed

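One root tip library labelled atphb3 and one of Col were compared; groups were taken from the titles. Per the file headers, the authors deposited for each of 26425 transcripts a read count and RPKM value per library, a log2 ratio, and a p-value with its false discovery rate. The sources used here do not give the aligner, counting tool, genome build or test. The deposited p-value and log2 ratio were not used, since they compare single libraries.

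Transcript counts were summed per locus and scaled to the library total as CPM; RPKM sets levels of different genes side by side. Fold values of single genes and class sums are ratios of CPM; log2 ratios carry a pseudocount of 0.5 reads and set the 2-fold calls. A measured locus had 50 reads in at least 1 library. 1 read equals 0.135 CPM in the library labelled atphb3 and 0.134 in Col; at 0 reads a floor of 3 counts was taken. No molecular identifiers were used as far as stated, and intervals and floors describe counting error alone. With 1 library per group no test across genotypes was run.

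Gene structure, upstream windows and shared 50-base stretches came from RefSeq TAIR10.1; 98.5% of the deposited spans lay inside the RefSeq locus. The genes named were all rule members, and of each related list the measured members at least 2-fold apart or else its most read ones; ASF1A, FAS1, FAS2, MSI1, SPT16, SSRP1, ARP6 and RBR1 were named after their values were seen. Members, lists and motifs were chosen with earlier results of these data known. Alternatives were TMM (edgeR 4.0.16) and median of ratios (DESeq2 1.42.0) scaling, a total without the 10 most abundant loci, the authors' RPKM, other pseudocounts, filters and limits, and subsets of members. The calculations were tested on simulated counts. Python 3.11.15, numpy 2.4.6, pandas 2.3.3, scipy 1.17.1, matplotlib 3.10.9 and R 4.3.3 were used.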

Additional observations from a re-analysis of the deposited data

How the results depend on the processing

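The lower calls of H1.3 and HTB3 held under each scaling, pseudocount, read minimum and interval rule tried, and 0 histone loci were 2-fold higher under these except with no filter, where 4 loci were higher and 4 lower, the added ones on at most 12 reads. At 1.5-fold, 6 were higher and 4 lower; leaving out HTB3 or H1.3 left 1 lower, and adding HTA3, HTB2 and HTR11 gave 1 higher. The median log2 ratio was -0.0072 under TMM and -0.013 with totals that leave out the 10 most abundant loci, and the mean was -0.12. Ratios near 1 also turned there: HTA5, HTB5, HTB11 and AT3G46320 under both (HTA5 under median of ratios too), and AT3G53730 with those totals alone. Under TMM the summed ratios were 1.08 for H2A, 0.818 for H2B and 1.03 for H3, and without the 10 most abundant loci 1.07, 0.815 and 1.03. Over loci with 200 reads the replicative H2A ratio was 0.971 and the H3.1 shares of H3 reads were 50.2% in the library labelled atphb3 and 37.2% in Col. By RPKM these shares were 55.2% and 42.6%; over loci with 1 listed transcript 60.3% and 50.5%, with ratios of 1.19 for H3 and 0.953 for H3.3; and without members that share 10% or more of their 50-base stretches 51.5% and 38.4%. With HTA3, HTB2 and HTR11 the H2A ratio was 1.24 and that of H2A.X 1.59. Without overlapping members H2A.Z, then resting mostly on HTA11, had 1.84 and H1 0.714. H2B without HTB3 had 1.04, and H1 without H1.3 had 0.822. The H2A.Z deposition median was -0.03, -0.003 and -0.03 under TMM, median of ratios and the total without the 10 loci; the chaperone median was 0.09 with no filter and its mean 0.11. The added genes, the exclusions of overlapping or sequence-sharing members, of HTB3 and of H1.3, and the alternatives for the related lists were chosen after seeing the data. With 1 library per group no replicate could be left out. No paired analysis was possible because each group has 1 library.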
